A study of Mus musculus with 4 samples.

Results

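The genes described here encode the mitochondrial respiratory chain, the ATP synthase and the enzymes of central energy metabolism, measured in the neocortex of mouse embryos. They were chosen by gene symbol alone, from the families of complexes I to V, glycolysis, the pyruvate dehydrogenase complex, the citrate cycle and fatty acid oxidation, with the glycolytic enzyme Gapdh left out. Of 6856 probes on the array, 73 carried such a symbol and 71 had a value on at least 3 arrays. These 71 probes stood for 69 genes, and all had a value on every one of the 4 arrays. The 2 without any value were those for Atp5g1, a subunit of the ATP synthase rotor ring, and Pdha1, the somatic E1 alpha subunit of pyruvate dehydrogenase. A further match, Pkmyt1, is a kinase of the cell cycle that shares only the first letters of its symbol with the pyruvate kinase gene. It was counted among the 71, had -0.06, -0.23 and 0.19 on replicates 2, 3 and 4, and was put in no pathway. No probe for complex III was matched, so that complex is not described.

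RNA of munc18-1 null mutants was set against RNA of control mice labelled wt on 4 two-colour arrays, with the neocortex of C57BL/6 embryos at embryonic day 16 as the source on both sides. The labels describe the null mutants as synaptically silent, since munc18-1 is needed for the release of transmitter from synaptic vesicles, and the series title names synaptic activity-regulated gene expression as the question. Each array held total RNA of a separate null sample, a biological replicate per the labels, beside a pool of 4 control replicates. Null RNA was labelled with Cy3 on replicate 1 and with Cy5 on replicates 2, 3 and 4. For replicate 1 the labels disagree on age, with day 14 in the source name and day 16 elsewhere. Each value is a log ratio of both channels, taken as log2, and its numerator is not given in the sources used here. Signs are therefore printed as deposited, and neither sign says in which genotype a gene was higher. Replicates 2 to 4 run the same way whichever channel is the numerator and carry the results below. On replicate 1 the sign may run the other way. The pool counts as 1 control sample, so that a test of the ratio against 0 leaves out the spread between controls.

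Mitochondria pass electrons from NADH and succinate along complexes I, II, III and IV to oxygen, and the proton gradient built on the way drives the ATP synthase, also called complex V. The electrons come from the citrate cycle, which is fed by pyruvate from glycolysis through the pyruvate dehydrogenase complex and by acetyl-CoA from fatty acid oxidation. Neural progenitors rely much on glycolysis, and neurons come to depend on oxidative phosphorylation as they mature, much of whose ATP is later spent on synaptic and electrical activity.

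Between 5777 and 5873 probes had a value on each array, with medians between -0.03 and 0.0044. The SD over probes was 0.63 on replicate 3 and 0.40 to 0.48 on the other arrays, and 7.82% of the probes of replicate 3 lay beyond 1 in size, against 1.70% to 3.97% elsewhere. Values of replicate 3 therefore weigh most in a mean. A log ratio carries no level of a gene, so that the tissue label could not be checked against marker levels, and fewer cells of a type and less RNA per cell cannot be told apart.

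None of the 71 probes passed the test over replicates 2 to 4. The mean log ratios lay between -0.60 for Acadm and 0.62 for Atp5md, and 0 of them reached 1 in size, which would be a 2-fold difference. Only 6 means lay beyond 0.3 in size, those of Atp5md, Ndufa4, Cox5b, Ndufa2 and Ndufa1 on the positive side and of Acadm on the negative side. In limma's test of the mean against 0, 0 of 71 had an adjusted p under 0.05, with a background of 0.0% over all 5720 probes tested. At an unadjusted p under 0.05, limma listed 2 of the 71, or 2.82%, namely Cox5b and Atp5md, where the background was 9.67%. Both were positive, for which the background was 5.61%. Positive means were found for 37 of the 71 and for 47.4% of all probes. On replicates 2 to 4, 19 of the 71, or 26.8%, kept 1 sign, against a background of 33.5%. The shares of the members at an unadjusted p and with 1 sign lay below those of the whole array. The median of the 71 means was 0.01, beside -0.02 for all probes. The half-widths of the members' 95% intervals ran from 0.34 to 0.88, with a median of 0.39, or 1.31-fold, which limits the differences that 3 arrays could show.

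**Figure D1:**
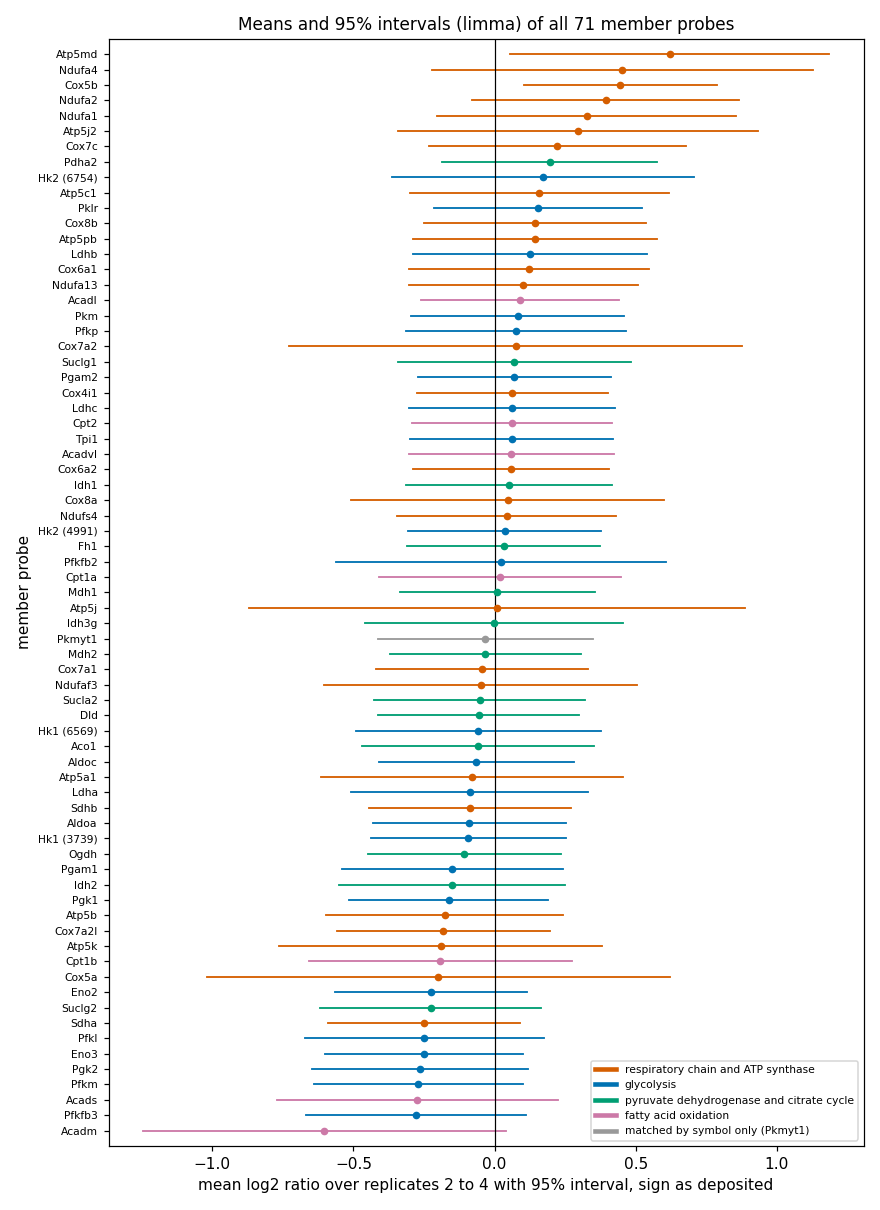
Each row is a member probe, with the point at its mean log2 ratio over replicates 2 to 4 and the line spanning its 95% interval from limma; the sign is as deposited, colours mark the pathway, and probe numbers tell apart the probes of a gene with several. The intervals of 2 probes, Atp5md and Cox5b, leave out 0, and the intervals of the other 69 probes include it.

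The measured genes grouped by symbol under complex I, the NADH dehydrogenase that takes up the electrons of NADH, all had a positive mean. There were 5, beside a background of 47.4% positive, and their median, with Ndufa4 counted in, was 0.33, beside -0.02 for all probes tested. Of these, 4 encode accessory subunits and the other, Ndufa4, has since been reassigned, and no probe for a catalytic core subunit was among the members. Ndufa2, a small accessory subunit of the matrix arm, had 0.18, 0.84 and 0.16 on replicates 2, 3 and 4, with 0.28 on replicate 1. It was positive on every array as deposited, with a mean of 0.39 ± 0.39 (SD, n = 3) at an adjusted p of 0.558 in limma. Over all 4 arrays the mean of Ndufa2 was 0.23 with replicate 1 turned and 0.06 with a dye term as well. Ndufa4, whose product was listed under complex I and is now known as a component of cytochrome c oxidase, had 0.05, 1.25 and 0.06, with 0.77 on replicate 1. Its mean of 0.45 ± 0.69 rested on replicate 3 alone, since it stood near 0 on replicates 2 and 4, and its adjusted p was 0.624. Ndufa1, a membrane arm subunit needed for assembly, had 0.26, 0.84 and -0.12, with 0.11 on replicate 1. Ndufa13, a subunit also known as GRIM-19 for its part in cell death, had 0.06, 0.38 and -0.14, with -0.24 on replicate 1. Ndufs4, a subunit whose loss causes Leigh syndrome in humans and a like disease in mice, had 0.01, 0.28 and -0.17, with -0.07 on replicate 1. All 5 were at their highest of the 3 arrays on replicate 3. Replicates 2, 3 and 4 had medians of 0.06, 0.84 and -0.12 over the 5 genes, and without replicate 3 the median of their means was 0.05. Ndufaf3, an assembly factor of complex I and no subunit, had -0.19, 0.53 and -0.49, with a mean of -0.05.

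Complex II, the succinate dehydrogenase shared by the chain and the citrate cycle, was represented by both of its catalytic subunits and by neither membrane anchor. Sdha, the flavoprotein that oxidises succinate, had -0.21, -0.28 and -0.26 on replicates 2, 3 and 4, with 0.26 on replicate 1. These 3 values lay closer together than those of most members, and their mean was -0.25 ± 0.04 (SD, n = 3), or 1.19-fold in size, with an adjusted p of 0.598 in limma. Sdhb, the iron-sulphur subunit, had -0.20, 0.07 and -0.13, with 0.18 on replicate 1. Its mean of -0.09 ± 0.14 did not differ from 0 beyond the spread, with an adjusted p of 0.846.

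Complex IV, cytochrome c oxidase, gave 11 members, all nuclear-encoded subunits around the mitochondrially encoded catalytic core. Their means ran from -0.20 for Cox5a to 0.45 for Cox5b, and 8 of 11 were positive, against 47.4% of all probes. The median was 0.06, or -0.03 without replicate 3. Cox5b, a zinc-binding subunit on the matrix side, had 0.47, 0.49 and 0.38 on replicates 2, 3 and 4, with -0.07 on replicate 1. It had the smallest p of all members, with a mean of 0.45 ± 0.06 (SD, n = 3), or 1.36-fold in size, and the values of the 3 arrays hardly differed. Its adjusted p in limma was 0.473. Cox5a, the other subunit 5, had -0.70, 0.83 and -0.72, with 1.29 on replicate 1. It lay at percentiles 4.87 and 2.83 of all probes on replicates 2 and 4 and at percentile 92.8 on replicate 3, and its mean of -0.20 ± 0.89 did not differ from 0, with an adjusted p of 0.847.

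Several subunits of complex IV exist as a ubiquitous form and as a form of heart and skeletal muscle, and both forms could be compared for 3 of them. Cox6a1, the ubiquitous subunit 6a, had -0.18, 0.43 and 0.11 on replicates 2, 3 and 4, and its muscle counterpart Cox6a2 had 0.15, -0.03 and 0.06. Cox7a2, the ubiquitous subunit 7a, had -0.26, 1.06 and -0.57, with 1.16 on replicate 1, while the muscle form Cox7a1 had 0.10, 0.03 and -0.26, with 0.03 on replicate 1. Cox8a and the muscle form Cox8b had 0.07, 0.55 and -0.49 and 0.05, 0.41 and -0.03. In each pair the ubiquitous form had the wider range over the 3 arrays. Cox7a2l, a relative of subunit 7a, had -0.25, 0.04 and -0.33. Cox4i1, the ubiquitous subunit 4, had 0.09, 0.03 and 0.07, with 0.29 on replicate 1, and was positive on every array as deposited. Over all 4 arrays the mean of Cox4i1 was -0.03 with replicate 1 turned and -0.11 with a dye term as well. Cox7c, a small subunit with no measured counterpart, had 0.19, 0.60 and -0.12, with 0.42 on replicate 1. The adjusted p of these 9 genes in limma lay between 0.705 and 0.952.

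Complex V gave 8 members, with a median of 0.08 and 5 positive means, against 47.4% positive over all probes. The median was -0.05 without replicate 3 and -0.05 in the 4-array fit with replicate 1 turned, so that its sign was not stable. The catalytic head was split, as Atp5a1, the alpha subunit, had 0.21, -0.65 and 0.19 on replicates 2, 3 and 4, and Atp5b, the beta subunit that makes ATP, had 0.15, -0.24 and -0.44. Both were negative on replicate 3. Atp5c1, the gamma subunit of the rotating shaft, had -0.03, 0.58 and -0.08. Of the stalk that holds the head, Atp5pb, subunit b, had -0.10, 0.51 and 0.02, and Atp5j, coupling factor 6, had -0.44, 1.11 and -0.65. Among the small subunits of the membrane part, Atp5j2, subunit f, had 0.10, 1.01 and -0.22, and Atp5k, subunit e, had 0.27, -0.80 and -0.04. On replicate 3 the members lay far apart, with Atp5a1, Atp5b and Atp5k below 0 and the other 5 at 0.51 or above. Atp5md, also named DAPIT, a small protein of the ATP synthase, had 0.47, 1.21 and 0.17, with 0.53 on replicate 1. All 4 values were positive as deposited, and the mean of replicates 2 to 4 was 0.62 ± 0.54 (SD, n = 3), or 1.54-fold in size, at an adjusted p of 0.488 in limma. Without replicate 3 its mean was 0.32. Over all 4 arrays it was 0.33 with replicate 1 turned and 0.04 with a dye term as well.

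**Figure D2:**
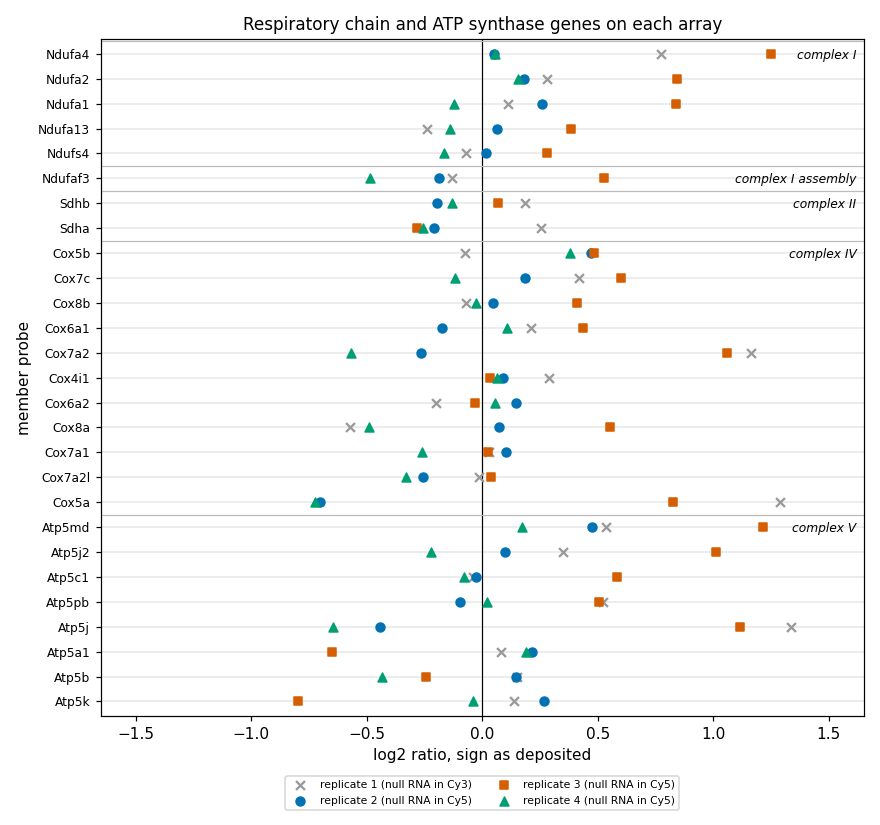
Each row is a probe of the respiratory chain or the ATP synthase, and each symbol its log2 ratio, sign as deposited, on 1 of the 4 arrays. The squares of replicate 3 lie furthest right for most genes, Cox5b has its values of replicates 2 to 4 close together at 0.38 to 0.49, and Cox5a, Cox7a2 and Atp5j have crosses and squares far right and circles and triangles left of 0.

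A shared arrangement of signs was seen in Cox5a, Cox7a2 and Atp5j, picked after their values were seen. As deposited, these 3 genes were between 1.16 and 1.34 on replicate 1 and between 0.83 and 1.11 on replicate 3. They were between -0.70 and -0.26 on replicate 2 and between -0.72 and -0.57 on replicate 4. On replicate 1 they lay at the far end of all probes, at percentile 99.2 for Cox5a, 99.1 for Cox7a2 and 99.3 for Atp5j. The arrangement itself was read from these 3 genes and was not tested. The 4 arrays share the control pool. Replicate 3 was the only array of replicates 2 to 4 on which Cox5a and Atp5j were positive. Without it their means were -0.71 and -0.54, sizes that follow from leaving that array out and test nothing.

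The 250 bases before the RefSeq start of these 3 genes are shown because their values moved together over the arrays, beside those of Cox5b and Atp5md, the 2 members at an unadjusted p under 0.05, and of Cox6a1 and Sdha, which hold the most motif matches. They come from RefSeq on GRCm38.p6 and run 5′ to 3′ in the direction of the gene, with capitals at matches to the NRF1, ETS, YY1 and oestrogen-related receptor letters given next. The shorter HIF core, also searched, is not marked. For Atp5j, the more downstream of its 2 listed starts is shown.
Cox5a (chr9:57520982-57521231, plus strand): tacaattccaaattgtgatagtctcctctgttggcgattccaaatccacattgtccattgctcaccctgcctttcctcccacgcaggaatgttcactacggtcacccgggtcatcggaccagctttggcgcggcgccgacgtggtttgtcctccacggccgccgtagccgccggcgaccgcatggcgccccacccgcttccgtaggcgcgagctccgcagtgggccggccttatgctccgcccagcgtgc
Cox7a2 (chr9:79759854-79760103, minus strand): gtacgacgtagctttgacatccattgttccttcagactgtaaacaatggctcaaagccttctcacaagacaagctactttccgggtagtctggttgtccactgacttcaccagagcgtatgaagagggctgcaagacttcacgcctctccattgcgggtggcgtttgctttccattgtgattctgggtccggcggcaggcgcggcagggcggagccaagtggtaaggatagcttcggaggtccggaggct
Atp5j (chr16:84834977-84835226, minus strand): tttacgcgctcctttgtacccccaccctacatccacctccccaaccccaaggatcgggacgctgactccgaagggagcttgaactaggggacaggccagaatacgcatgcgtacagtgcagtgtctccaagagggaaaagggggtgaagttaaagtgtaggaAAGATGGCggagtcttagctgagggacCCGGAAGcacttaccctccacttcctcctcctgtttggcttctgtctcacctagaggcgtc
Cox5b (chr1:36691237-36691486, plus strand): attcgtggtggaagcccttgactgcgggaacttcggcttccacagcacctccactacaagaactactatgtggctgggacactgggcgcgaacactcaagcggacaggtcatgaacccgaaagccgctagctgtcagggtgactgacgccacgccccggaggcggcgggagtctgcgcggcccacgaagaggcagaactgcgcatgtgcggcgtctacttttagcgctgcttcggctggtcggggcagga
Atp5md (chr19:47090648-47090897, minus strand): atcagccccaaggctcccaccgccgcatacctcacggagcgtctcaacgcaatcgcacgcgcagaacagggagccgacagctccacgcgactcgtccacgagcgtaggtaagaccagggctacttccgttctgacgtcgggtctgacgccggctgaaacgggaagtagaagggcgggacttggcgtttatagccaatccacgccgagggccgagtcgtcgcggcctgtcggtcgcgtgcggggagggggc
Cox6a1 (chr5:115348959-115349208, minus strand): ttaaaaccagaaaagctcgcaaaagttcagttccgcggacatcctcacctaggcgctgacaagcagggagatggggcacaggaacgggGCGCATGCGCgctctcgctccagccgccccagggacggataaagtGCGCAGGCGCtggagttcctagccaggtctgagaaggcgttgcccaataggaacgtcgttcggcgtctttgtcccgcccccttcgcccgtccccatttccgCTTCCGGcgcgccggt
Sdha (chr13:74350241-74350490, minus strand): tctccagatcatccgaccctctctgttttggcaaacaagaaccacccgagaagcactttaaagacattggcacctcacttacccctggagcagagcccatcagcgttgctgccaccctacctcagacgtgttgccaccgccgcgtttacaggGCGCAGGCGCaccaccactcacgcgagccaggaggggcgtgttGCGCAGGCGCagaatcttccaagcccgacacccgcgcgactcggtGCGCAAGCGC

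Nuclear genes of oxidative phosphorylation are known targets of the factors NRF1, GABP, a member of the ETS family, and YY1. Short motifs were therefore searched on both strands of the 300 bases from 250 before to 50 after each listed start, for 63 energy genes that had such a window. The NRF1 letters, GCGCA and GCGC with 1 free base between them, were found in 4 of 25 windows of the respiratory chain, or 16.0%, and in 4.6% of all 32851 windows. CCGGAAG, for ETS factors, was found in 6 of 25 and in 8.86% of all. AAGATGGC, for YY1, was found in 4 of 25 and in 2.75% of all. TCAAGGTCA, for oestrogen-related receptors, was found in 0 of 25 and in 0.423% of all. In the windows printed, Sdha held the NRF1 letters in 3 places, starting 98, 55 and 10 bases before the start, and Cox6a1 held them 162 and 117 bases before it, with an ETS match at 16. Atp5j held a YY1 match starting 88 bases before its start and an ETS match at 61, while the printed windows of Cox5a, Cox7a2 and Cox5b held none of these letters. Atp5md had an ETS match starting 2 bases after its start, past the stretch printed. The 3 genes that moved together thus shared no match in these windows. Among glycolysis genes, the letters ACGTG, the core bound by HIF factors, were found in 15 of 35 windows, or 42.9%. They were also found in 7 of 25 windows of the respiratory chain, or 28.0%, in 9 of 25 of the other members, or 36.0%, and in 19.6% of all windows. Each listed start gave its own window, so that a gene with several starts counted more than once. The 35 glycolysis windows came from 21 genes and the 25 windows of the other members from 19. All windows of Ogdh held the letters, and some of them overlap, so that these shares are not shares of genes.

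Over the respiratory chain as a whole, counted with the assembly factor, 18 of 27 means were positive, against 47.4% of all probes. The median was 0.06. Among the arrays, replicate 3 lay furthest from 0: there 22 of 27 were positive, against a background of 49.7%, and the median was 0.49. There 15 of 27 lay beyond 0.5 in size against a background of 30.8%, and 13 of 27 lay above 0.5 against a background of 17.1%. On replicate 2 the median was 0.06 with 17 of 27 positive, against 46.0% of all probes, and on replicate 4 it was -0.12 with 9 of 27 positive, against 50.9%. Replicate 1 had a median of 0.15 as deposited, with 18 of 27 positive, against 50.3%. The cytosolic ribosomal proteins, the parts of the translation machinery and no members here, were added after their values were seen because they ran alongside. Their 37 probes had medians of 0.38, 0.07, 0.67 and -0.08 on replicates 1 to 4, the same order of arrays as the respiratory chain. Their part in the result was not tested.

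**Figure D3:**
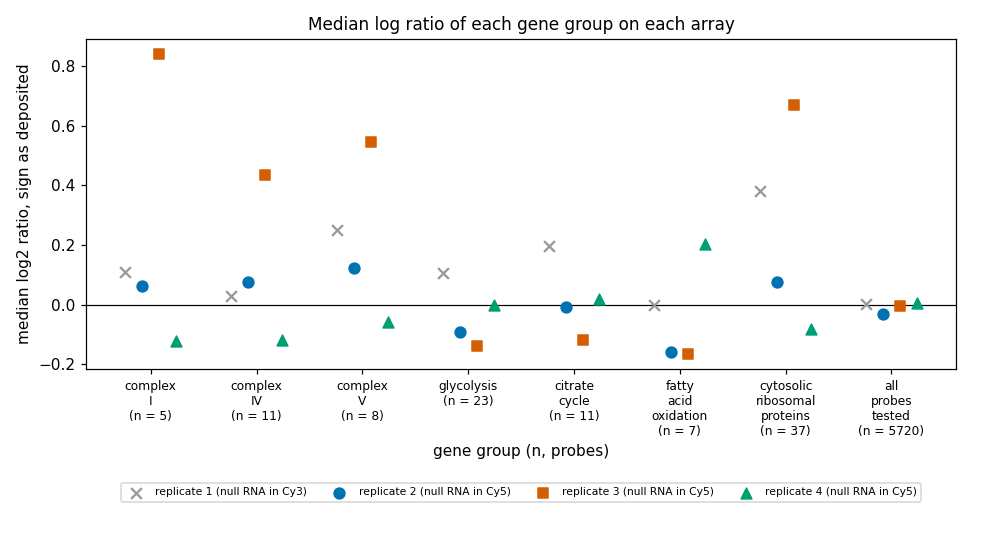
Each symbol is the median log2 ratio, sign as deposited, of a gene group (with n probes) on 1 of the 4 arrays. Complex I is grouped by gene symbol and includes Ndufa4. Complexes I, IV and V and the ribosomal proteins have their highest median on replicate 3, at 0.84, 0.43, 0.54 and 0.67, whereas glycolysis, the citrate cycle and fatty acid oxidation lie at -0.14, -0.12 and -0.16 there and all probes at -0.0040.

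Glycolysis, the path from glucose to pyruvate and lactate, gave 23 probes of 21 genes, which kept closer to 0. The means ran from -0.28 for Pfkfb3 to 0.17 for a probe of Hk2, and the median was -0.07. Of the means, 13 were negative and 10 positive, where 47.4% of all probes were positive. Of the 23, 8 were negative on all 3 arrays against a background of 17.3%, and 2 were positive on all 3 against a background of 16.3%. In limma, 0 of 23 had an adjusted p under 0.05 and 0 of 23 an unadjusted p under 0.05. The backgrounds were 0.0% and 9.67%. The median lay between -0.07 and -0.06 when each of the 3 arrays was left out in turn, yet the arrays were not alike. On replicates 2, 3 and 4 the medians were -0.09, -0.14 and 0.00035. There 8, 6 and 12 of 23 were positive, against 46.0%, 49.7% and 50.9% of all probes.

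At the entry of the path, the hexokinase genes were each measured by 2 probes. Hk1, the main hexokinase of brain, had -0.10, -0.01 and -0.16 on replicates 2, 3 and 4 at one probe and -0.09, -0.36 and 0.28 at the other. Hk2, the form of growing cells and muscle, had 0.009, 0.10 and 0.00035 at one probe and -0.09, 0.74 and -0.13 at the other. The probes of a gene disagreed most where the second probe stood apart, on replicate 4 for Hk1 and on replicate 3 for Hk2. The committed step is made by phosphofructokinase, whose muscle-type subunit Pfkm had -0.25, -0.46 and -0.10. Its values were negative on every array as deposited, with a mean of -0.27 ± 0.18 (SD, n = 3) at an adjusted p of 0.600 in limma. Over all 4 arrays the mean of Pfkm was -0.18 with replicate 1 turned and -0.10 with a dye term as well. The liver-type subunit Pfkl had -0.43, -0.42 and 0.10, and the platelet-type subunit Pfkp had -0.03, 0.34 and -0.08. Pfkm and Pfkl thus had means of -0.27 and -0.25, and Pfkp one of 0.08. Pfkfb3, which makes the activator of phosphofructokinase, fructose 2,6-bisphosphate, had -0.24, -0.52 and -0.07, with a mean of -0.28 ± 0.23 at an adjusted p of 0.606. Pfkfb2, its relative of heart, had 0.57, -0.56 and 0.06 and no single sign.

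In the middle of the path, Aldoa, the ubiquitous aldolase, had -0.13, -0.12 and -0.02 on replicates 2, 3 and 4, and Aldoc, the aldolase of brain, had -0.07, 0.01 and -0.15. Tpi1, triosephosphate isomerase, had 0.10, -0.10 and 0.18. Pgk1, the phosphoglycerate kinase of somatic cells, had -0.10, -0.30 and -0.10, with 0.47 on replicate 1, and Pgk2, the form of testis, had -0.46, -0.04 and -0.29, with 0.48 on replicate 1. Both kinases were negative on replicates 2 to 4 and positive on replicate 1 as deposited, with an adjusted p of 0.719 and 0.621 in limma. Pgam1, the phosphoglycerate mutase of brain, had -0.15, -0.38 and 0.09, and the muscle form Pgam2 had 0.0034, 0.08 and 0.13. Eno2, the neuron-specific enolase, had -0.25, -0.23 and -0.20, with -0.09 on replicate 1. It was negative on every array as deposited, with a mean of -0.22 ± 0.03 at an adjusted p of 0.627 in limma. Over all 4 arrays the mean of Eno2 was -0.15 with replicate 1 turned and -0.07 with a dye term as well. Eno3, the enolase of muscle, had -0.36, -0.24 and -0.15, with 0.37 on replicate 1, a mean of -0.25 ± 0.10 at an adjusted p of 0.605. Both enolases differed little between replicates 2 to 4, and neither mean passed the test.

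At the end of the path, Pkm, the pyruvate kinase of brain and muscle, had 0.24, -0.14 and 0.15 on replicates 2, 3 and 4, and Pklr, the form of liver and red cells, had -0.03, 0.17 and 0.32. Lactate dehydrogenase, which turns pyruvate to lactate and back, was measured in all 3 of its main subunits. Ldha, the muscle-type subunit, had 0.09, -0.43 and 0.08, Ldhb, the heart-type subunit, had 0.19, -0.18 and 0.37, and Ldhc, the subunit of testis, had 0.22, -0.10 and 0.07. All 3 were positive on replicates 2 and 4 and negative on replicate 3, and their adjusted p in limma lay between 0.802 and 0.897.

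Pyruvate dehydrogenase was left with 2 measured members, as Pdha1 had no value. Pdha2, the E1 alpha subunit of testis, had -0.02, 0.39 and 0.22 on replicates 2, 3 and 4, with a mean of 0.19 ± 0.20 (SD, n = 3). Dld, the E3 subunit shared with other dehydrogenase complexes, had -0.18, -0.08 and 0.09, with a mean of -0.06 ± 0.13. Neither differed from 0 beyond the spread, with an adjusted p of 0.698 and 0.904 in limma.

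The citrate cycle, counted without succinate dehydrogenase, held 11 members, whose means lay between -0.23 and 0.07 with a median of -0.03. Suclg2, the GTP-forming subunit of succinyl-CoA ligase, had -0.27, -0.43 and 0.02 on replicates 2, 3 and 4, and its mean of -0.23 ± 0.23 (SD, n = 3) was furthest from 0, with an adjusted p of 0.666 in limma. Its ATP-forming counterpart Sucla2 had -0.09, 0.15 and -0.22, and Suclg1, the subunit that pairs with either, had -0.08, -0.10 and 0.39. The 3 subunits of the ligase thus ran apart. Idh2, the NADP-dependent isocitrate dehydrogenase of mitochondria, had -0.0066, -0.44 and -0.006, and Idh1, its cytosolic relative, had 0.20, -0.12 and 0.08. Idh3g, a subunit of the NAD-dependent enzyme, had 0.35, -0.37 and 0.02. All 3 isocitrate dehydrogenase genes were negative on replicate 3. Ogdh, the E1 subunit of oxoglutarate dehydrogenase, had -0.15, -0.12 and -0.06 and was negative on all 3 arrays, with an adjusted p of 0.797. Mdh2, malate dehydrogenase of mitochondria, had -0.0032, -0.05 and -0.04, and the cytosolic Mdh1 had 0.09, -0.03 and -0.03. Fh1, fumarase, had -0.03, 0.05 and 0.08, and Aco1, the cytosolic aconitase that also binds iron-responsive RNA elements, had 0.13, -0.38 and 0.07. On replicate 1, 10 of 11 were positive as deposited, with a median of 0.20 against 0.0037 for all probes. There 50.3% of all probes and 47 of all 71 members were positive. On replicates 2, 3 and 4 the positive ones of the cycle were 4, 2 and 6, against 46.0%, 49.7% and 50.9% of all probes.

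Fatty acid oxidation, a minor fuel of neurons, gave 7 members with a median of 0.02, which lay between -0.16 and -0.0051 when each of the 3 arrays was left out in turn. Acadm, the medium-chain acyl-CoA dehydrogenase, had -0.97, -0.98 and 0.15 on replicates 2, 3 and 4, with -1.19 on replicate 1. As deposited, it lay near the low end of all probes on replicates 1, 2 and 3, at percentiles 1.67, 2.07 and 3.34. On replicate 4 it lay at percentile 69.6. Its mean of -0.60 ± 0.65 (SD, n = 3) was 1.52-fold in size, with an adjusted p of 0.525 in limma. Without replicate 4, its only positive array, the mean was -0.98, a size that follows from leaving that array out. Over all 4 arrays the mean of Acadm was -0.16 with replicate 1 turned and 0.29 with a dye term as well. Acads, the short-chain enzyme, had -0.42, -0.61 and 0.21, with -0.55 on replicate 1, the same order of signs as Acadm. The long-chain enzyme Acadl had -0.008, 0.08 and 0.20, and Acadvl, the very long-chain enzyme, had 0.20, -0.11 and 0.08. Acadm and Acads thus stood away from their long-chain relatives on replicates 2 and 3, a difference seen in the values and not tested. Of the carnitine palmitoyltransferases, which carry fatty acids into mitochondria, Cpt1a, the liver type, had -0.16, -0.16 and 0.38. Cpt1b, the muscle type, had -0.34, -0.47 and 0.24, and Cpt2, on the inner membrane, had -0.06, 0.20 and 0.05. All 7 members were positive on replicate 4, at 0.05 to 0.38, where 50.9% of all probes were positive. On replicates 2 and 3, 1 and 2 of 7 were positive, against 46.0% and 49.7% of all probes.

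**Figure D4:**
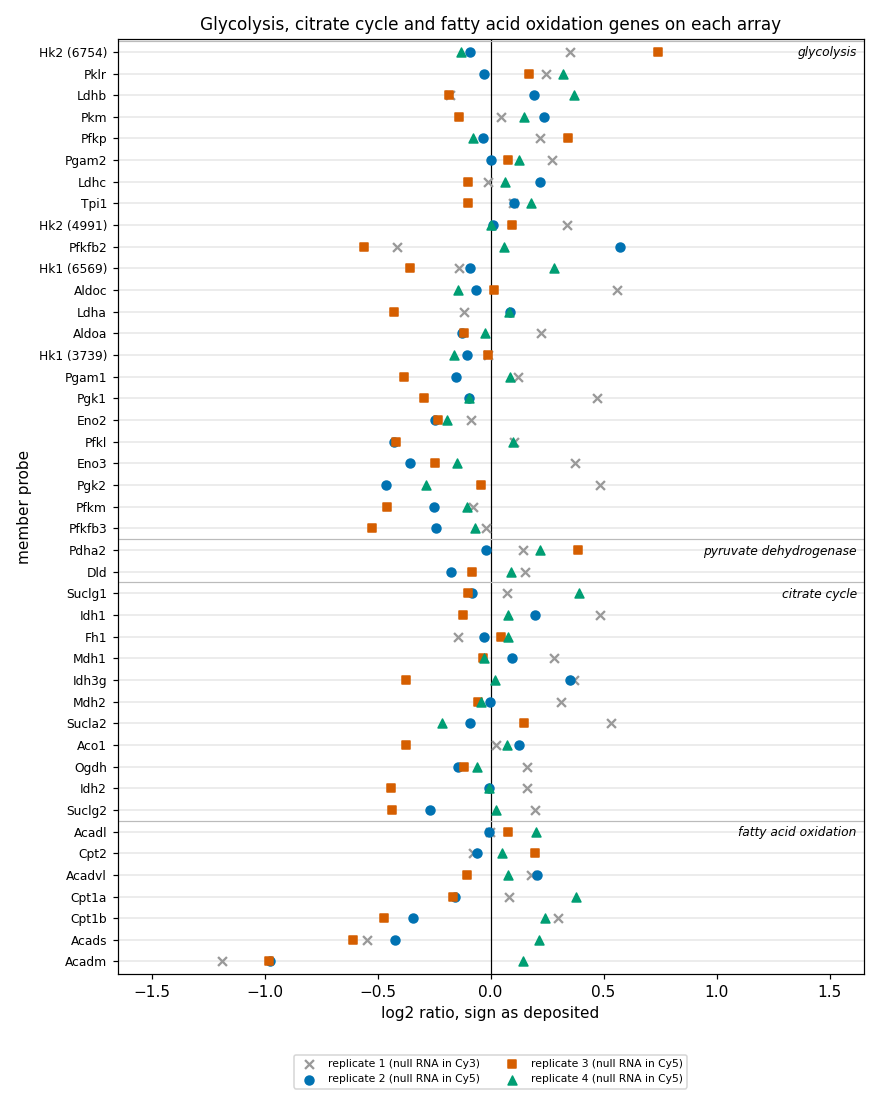
Each row is a probe of glycolysis, pyruvate dehydrogenase, the citrate cycle or fatty acid oxidation, and each symbol its log2 ratio, sign as deposited, on 1 of the 4 arrays. Most symbols lie within 0.5 of 0, and Acadm stands out with 3 arrays at -0.97 or below and replicate 4 at 0.15.

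With all 4 arrays in the fit, the members of smallest p differed with the sign given to replicate 1. With replicate 1 turned, limma listed 3 of 71 at an unadjusted p under 0.05, or 4.23%, against a background of 8.44%, namely Cox5b at 0.35 ± 0.19 (SD, n = 4), Pgk2 at -0.32 and Eno3 at -0.28. With replicate 1 as deposited it listed 3 of 71 against a background of 7.12%, namely Acadm at -0.75 ± 0.60 (SD, n = 4), Atp5md at 0.60 ± 0.44 and Ndufa4 at 0.53 ± 0.59. No gene was on both lists, which says little for lists of 3 genes, and the overlap over all probes was not counted. In both fits 0 of 71 had an adjusted p under 0.05, where the background was 0.0% turned and 0.0352% as deposited, and the smallest adjusted p of a member in limma was 0.559 and 0.663. All 4 arrays had 1 sign for 9 of 71 with replicate 1 turned, against a background of 18.1%, and for 10 of 71 with it as deposited, against a background of 15.5%.

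Genes next to these pathways were counted from 11 further lists, and none of their probes had an adjusted p under 0.05 in limma. For their counts of positive and negative means, the background was 47.4% positive over all probes tested. Mitochondrial import, the machinery that brings the nuclear-encoded subunits in, had 7 of 11 probes positive with a median of 0.15. On all 3 arrays, 5 were positive and 2 negative, against backgrounds of 16.3% and 17.3%. Timm9, a chaperone of the intermembrane space, had 0.27, 0.57 and 0.42 on replicates 2, 3 and 4, with an adjusted p of 0.481 in limma. On the same list, Timm8b and Timm8a1 had means of 0.46 ± 0.40 (SD, n = 3) and 0.41 ± 0.38. The mitochondrial ribosome, which makes the subunits encoded in the organelle, had 6 of 9 positive with a median of 0.06. Mrpl40 had 0.70, 0.51 and 0.43, and Mrps31 had 0.74, 0.54 and 0.31, with an adjusted p of 0.454 and 0.473. In mitochondrial biogenesis, 6 of 8 were negative with a median of -0.17. Polg2, the accessory subunit of the mitochondrial DNA polymerase, had -0.98, -1.49 and -0.44 with an adjusted p of 0.454, while the transcription factors Tfam and Tfb2m had means of 0.35 ± 0.16 and 0.32 ± 0.17.

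Gluconeogenesis and glycogen genes had 8 of 9 negative with a median of -0.19, where 47.4% of all probes had a positive mean. The mean was -0.45 ± 0.62 (SD, n = 3) for G6pc, the catalytic subunit of glucose-6-phosphatase, -0.36 ± 0.27 for Gsk3b, the glycogen synthase kinase, and -0.26 ± 0.12 for Pygm, muscle glycogen phosphorylase. Creatine and adenylate kinases had 5 of 6 negative with a median of -0.07. Mitochondrial carriers and channels had 6 of 10 positive with a median of 0.02, among them the pyruvate carrier subunit Mpc1 at 0.20 ± 0.18. Glucose and lactate transport had 3 of 5 positive with a median of 0.02, and Bsg, the chaperone of lactate transporters, had 0.41 ± 0.33. Pentose phosphate genes were 2 of 4 positive, with transketolase, Tkt, at -0.32 ± 0.35. Electron carriers were 1 of 3 positive, with Cycs, cytochrome c, at 0.21 ± 0.31. The pyruvate dehydrogenase kinases Pdk2 and Pdk4 had 0.28 ± 0.29 and 0.15 ± 0.41, and Surf1, the assembly factor of cytochrome c oxidase and the only probe of its list, had 0.29 ± 0.33. Over all 11 lists, limma had 4 of 68 probes, or 5.88%, at an unadjusted p under 0.05, namely Mrpl40, Mrps31, Timm9 and Polg2, against a background of 9.67%.

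Markers of cell types with a metabolism of their own were set beside the members. Of all probes tested, 47.4% had a positive mean. On replicates 2, 3 and 4, markers of neurons had medians of 0.03, -0.04 and -0.13 with 3 of 10 means positive, and neural progenitors had -0.06, 0.15 and -0.17 with 4 of 10 positive. Red blood cells had 0.05, -0.67 and -0.42 with 1 of 5 positive, and meninges and vessels had -0.24, -0.54 and -0.26 with 2 of 9 positive. Microglia had 0.38, 0.59 and 0.28 with 6 of 7 positive, and skeletal muscle, with 3 probes, had -0.26, -0.11 and -0.71 with 1 positive. Of these lists, only neural progenitors had, like the respiratory chain, a median above 0 on replicate 3 and below 0 on replicate 4. Their part in the values was not tested.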

How the data were processed

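The authors deposited 1 column of processed log ratios for each array, read here as log2, an assumption drawn from the size of the values. Which channel was divided by which, the log base and the normalization were not stated in the labels, and 0 further value columns were left unused. Of 6856 probes, 6269 had 1 gene symbol in the platform annotation, 6 had several and 581 had none. Entrez IDs of 6250 were found in the RefSeq table of GRCm38.p6, which changed 0 symbols.

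Means over replicates 2 to 4 were tested against 0, two-sided, in R 4.3.3 by the moderated fit (lmFit, eBayes) of limma 3.58.1 over 5720 probes with all 3 values, with Benjamini-Hochberg adjustment over all of them and a threshold of 0.05. The procedure was tested on simulated data. The rule for naming took members at an unadjusted p under 0.05, the 3 of smallest p per pathway, isoform families and succinate dehydrogenase, 53 probes in all. The other members are given with their values as well, beyond that rule. Cox5a, Cox7a2 and Atp5j as a trio, their arrangement of signs and the ribosomal proteins were chosen after their values were seen. Members and lists were chosen with earlier results of these data known. Alternatives covered the sign of replicate 1, a dye term, centring, scale, missing values, averaging by gene, a robust prior, array weights, the log base, the threshold and leaving out each replicate. The transcript of the deleted gene was not analysed here. Precision is limited by the number of arrays.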

Additional observations from a re-analysis of the deposited data

How the results depend on the processing

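No member passed the adjusted threshold in limma under any alternative run. Of 157 recomputed counts and pathway medians, 140 stayed within 1.5 times the count or within the spread between replicates. That spread was wider than the size of the median for every pathway but complex II, at 0.51 against 0.33 for complex I and 0.31 against 0.08 for complex V. With the dye term, complex I at 0.06 and complex V at -0.12 still counted as unchanged. The tally is therefore no measure of stable medians. Over all probes, the number past the adjusted threshold was 2 with replicate 1 as deposited, 1 with replicate 1 turned and a dye term, 1 with a robust prior, 3 with array weights and 1 at an adjusted p under 0.1. Members at an unadjusted p under 0.05 numbered 0 with the dye term and 5 with array weights, which gave replicate 3 a weight of 0.478 and added Acadm, Pgk2 and Eno3. Leaving out a replicate gave 0 to 3 such members, with 0 when replicate 2 was left out. The share of all probes at an unadjusted p under 0.05 was not counted in these fits. Their numbers of members therefore cannot be set against a background. Members with a single sign numbered 9 with replicate 1 turned, 10 with it as deposited, and 29 to 42 with 1 of the 3 arrays left out, where a single sign is needed on fewer arrays. The median of complex II was -0.071 with replicate 1 as deposited and -0.24 with values read as natural logs. That of the citrate cycle was 0.053 with replicate 1 as deposited and -0.16 with the dye term. Leaving out replicate 3 took complex IV to -0.03 and complex V to -0.05, against 0.06 and 0.08 with it, and the citrate cycle to 0.02. Complex I ranged from 0.05 to 0.51, and was 0.51 without replicate 4. The median of fatty acid oxidation was -0.16 without replicate 4, -0.01 without replicate 2 and -0.0051 without replicate 3. Complex V was 0.24 without replicate 2 and 0.24 without replicate 4, complex IV was 0.13 without replicate 4, and pyruvate dehydrogenase ranged from 0.03 to 0.15. Of 53 named probes, 18 changed sign with the dye term, 7 with replicate 1 turned, 5 with it as deposited and 10 without replicate 3. No paired analysis was possible because each array pairs a separate null sample with the same pool and no replicate number is shared between groups. Apart from the construction of the single-sign counts, the cause was not tested. Signal over background is unknown, since no scanner intensities were used here.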
